A study of Mus musculus with 2 samples.

Results

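MiR-132, miR-212 and miR-128 are neuronal miRNAs, and here their reads were compared between a young and an old mouse brain library. They were picked by their names, mmu-miR-132, mmu-miR-212 and mmu-miR-128, from the 558 known miRNA names of the study. The 3 names gave 4 mature sequences, since miR-212 was listed with both of its arms, miR-212-3p and miR-212-5p. A tag is a distinct read sequence. For each member the counted tag was the tag whose young and old reads equalled the pair that the study lists under that name, and where several tags held that pair (miR-212-3p) it was the one equal to the known mature sequence. All tags that share its first 18 nucleotides (its start) were then added. Equality of the counted tag with the listed pair therefore comes from the rule and is no result.

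Small RNAs were sequenced from brains of male C57BL/6J mice, an inbred strain. The young library joined the cDNA of 2 mice aged 5 months, and the old library that of 2 mice aged 24 to 25 months. The labels name no treatment or genetic change in either group. With 1 library per age there is no replicate error, so every interval and p-value below covers the sampling of reads only, compares these 2 libraries rather than the ages, and treats PCR copies as if they were separate molecules. The reads counted here are those that matched the mouse genome, 4523267 in the young library and 6658732 in the old library. Sequenced reads without a match are left out, and their split between the libraries is not known from the sources used here. Below, all reads of a library means all its genome-matched reads. Thus 1 RPM (1 read per 1000000 such reads of the library) corresponds to 4.52 young and 6.66 old reads. Undetermined bases were carried by 4.57% of young and 1.07% of old reads. Levels are given in RPM, with all reads of a library as its depth, and the total depth of the old library was 1.47 times that of the young library.

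A miRNA is cut from a hairpin precursor, whose 5′ and 3′ arms can each give a mature strand of about this size range, and the strand kept by Argonaute guides repression of mRNAs that pair with its seed, bases 2 to 8. Transcription of the miR-212/132 locus is driven by CREB after neuronal activity and neurotrophin signalling, and both miRNAs are known for control of dendrite growth, spine density and synaptic plasticity. miR-128 is a brain-enriched miRNA known for limiting neuronal excitability and motor activity.

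The mature sequences are shown because their seeds place the members in 3 groups. They are printed 5′ to 3′ with the seed in capitals, and all 4 equalled the RefSeq mature sequence of that name (GRCm38.p6).
miR-132: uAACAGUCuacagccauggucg
miR-212-3p: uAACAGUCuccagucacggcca
miR-212-5p: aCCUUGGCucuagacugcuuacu
miR-128: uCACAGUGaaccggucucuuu
miR-132 and miR-212-3p had the same seed, and no other mature sequence in the RefSeq table had it. Aligned from their 5′ ends they were identical at 17 of 22 positions and the substitutions, in which the base of miR-132 stands first and the count runs from 1 at the 5′ end of miR-132, were A10C, C14U, U17C, U20C and G22A. The differences lie within the first 18 nucleotides as well as after them, so reads of these 2 miRNAs were never pooled. The seed of miR-212-5p and that of miR-128 were each held by no other mature sequence in the table.

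On NCBIM37 (mm9), the build to which the authors aligned their reads, each counted tag of the miR-212/132 locus had 1 perfect match. Both hairpins lie on the plus strand of chromosome 11 in an intron of the lincRNA 1700016P03Rik, on its strand. Mir212 spans chr11:74986890-74986980 and Mir132 spans chr11:74987184-74987249, with 203 bases between them. The tag of miR-212-5p lies at 74986905 to 74986927, that of miR-212-3p at 74986945 to 74986966, and that of miR-132 at 74987225 to 74987246. The tag of miR-128 had 2 perfect matches, because a pair of hairpins carries it. Mir128-1 spans chr1:130098938-130099007 on the plus strand, in an intron of R3hdm1, and Mir128-2 spans chr9:112021140-112021215 on the minus strand, in an intron of Arpp21, each on the strand of its host gene. Reads of the counted tag of miR-128 cannot be split between these loci.

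miR-128 had by far the most reads of the members, and all 4 members had lower RPM in the old library when all reads were taken as depth. For miR-132 and both arms of miR-212, however, this direction flipped under TMM or DESeq2 size factors. The young library held 103163 reads of the miR-128 start (22807 RPM, exact 95% Poisson interval 22668 to 22947) and the old library 89971 reads (13512 RPM, 13424 to 13600). By its reads miR-128 ranked 7 among the 168 known miRNAs compared here. Of the reads on the 4 starts it held 97.0% in the young and 96.3% in the old library, and the 4 starts together made up 2.35% of the young library and 1.40% of the old library. In RPM its old level was 0.592 of the young level (exact 95% counting interval 0.587 to 0.598), 1.69-fold lower, a log2 ratio (old over young) of -0.76 with z = -117 in the random sampling model of DEGseq. The log2 ratio of miR-128 was negative with every depth tried, -0.09 with TMM factors and -0.81 with known-miRNA reads as the depth being the extremes. In brain tissue, fewer cells of a type and less RNA per cell cannot be told apart.

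miR-132, the better known product of its locus, had 1013 young and 1090 old reads, or 224 RPM (210 to 238) and 164 RPM (154 to 174). The ratio was 0.731 (0.670 to 0.797), a log2 ratio of -0.45 with z = -7.25 in the same model, and it turned to 0.21 with TMM and 0.13 with DESeq2 factors. miR-212-3p, which has the seed of miR-132, had the fewest reads of the members, with 139 reads in each library, or 30.7 RPM (25.8 to 36.3) young and 20.9 RPM (17.5 to 24.6) old. Its ratio was 0.679 (0.533 to 0.866), a log2 ratio of -0.56 with z = -3.25, which was 0.10 with TMM and 0.029 with DESeq2 factors. miR-212-5p, the other arm of that hairpin, had 1990 young and 2214 old reads, or 440 RPM (421 to 460.0) and 332 RPM (319 to 347). Its ratio was 0.756 (0.711 to 0.803), a log2 ratio of -0.40 with z = -9.16, which was 0.26 with TMM and 0.18 with DESeq2 factors. Reads of miR-212-5p were 14.3 times those of miR-212-3p in the young and 15.9 times in the old library. The strand of miR-212 with more reads was thus the one that does not share the seed of miR-132. Whether reads of different sequences reflect their amounts alike was not tested.

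**Figure D1:**
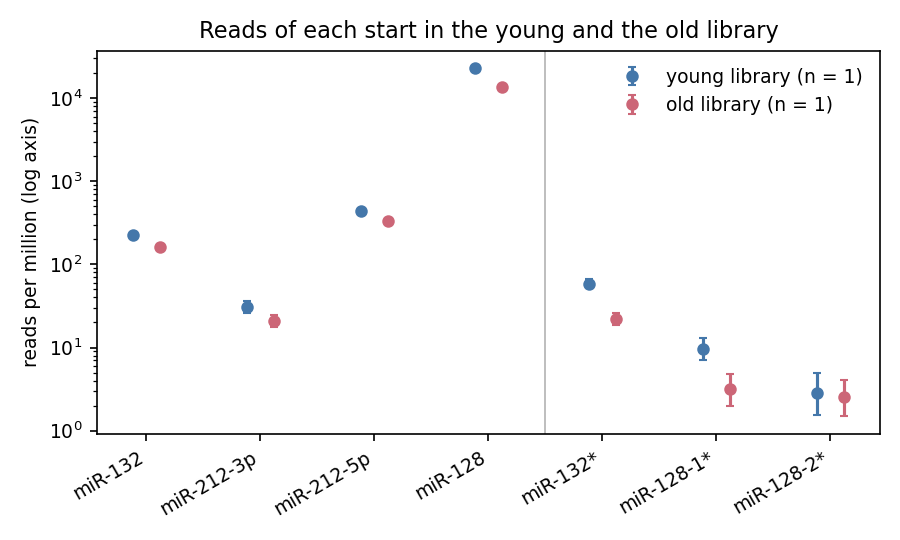
RPM of each start (log axis) in the young (blue) and the old (red) library, 1 library each, with exact 95% Poisson intervals as bars. The 4 members stand left of the line, from 30.7 RPM young for miR-212-3p to 22807 RPM young for miR-128, and the listed partner strands right of it, and the lower old points of miR-132, miR-212-3p and miR-212-5p depend on all reads as depth, since their ratios were above 1 with TMM and DESeq2 factors.

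Against the 168 known miRNAs compared here, the ratios of the members lay between the quartiles. The comparison set was 168 known miRNAs other than star sequences, each held by a single tag, with at least 10 reads in a library and each start counted once. Of the 558 names, 199 were held by a single tag. All of the 168 exceeded 50 reads in the young library, the old library or both, so rarer miRNAs are not represented. The median log2 ratio of the 168 was -0.59 with quartiles of -1.02 and -0.11, and 134 of them were lower in the old library. A ratio at least 1.5-fold lower in the old library was found for 1 of the 4 members, miR-128, and for 85 of the 168 known miRNAs (50.6%). None of the 4 members was 2-fold lower, against 26.8% of the known miRNAs. A p under 0.05 with a lower old level was obtained for 4 of 4 members and for 73.8% of the known miRNAs, while 13.7% had such a p with a higher old level. Of the 168, 42.3% had a lower ratio than miR-128, 54.2% a lower ratio than miR-212-3p, 58.3% a lower ratio than miR-132 and 61.9% a lower ratio than miR-212-5p.

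Because most of the 168 known miRNAs were lower in RPM, the size of each difference depended on what was taken as depth. With DESeq2's size factors every log2 ratio moves up by 0.59, the size of the median over the known miRNAs, and with TMM factors by 0.66. Relative to that median, miR-132 stood 0.13 higher, miR-212-3p 0.029 higher and miR-212-5p 0.18 higher, while miR-128 stood at -0.17. Leaving let-7 and miR-98 out of the depth moved all ratios up by 0.37, and then miR-132 (-0.08), miR-212-3p (-0.19) and miR-212-5p (-0.03) no longer passed the random sampling model at 0.05, while miR-128 was at -0.39.

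**Figure D2:**
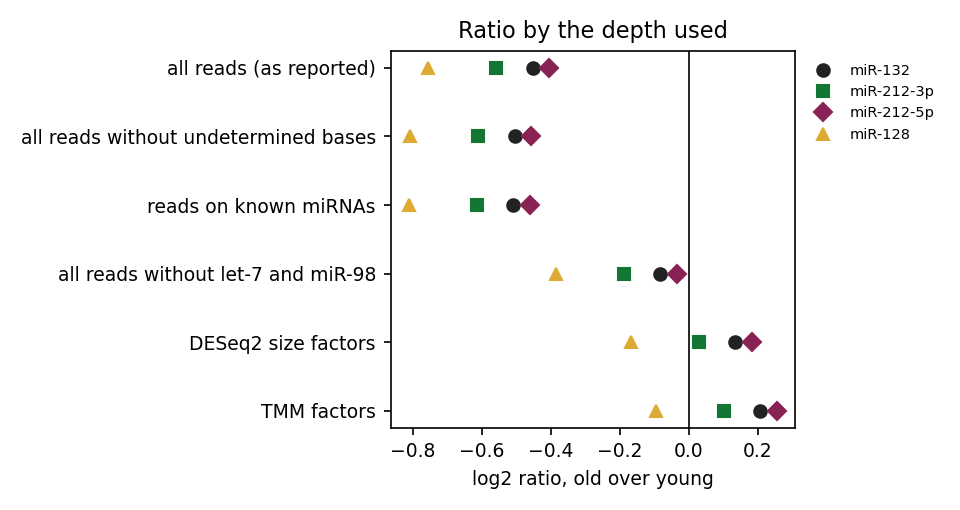
Log2 ratio, old over young, of the 4 members for 6 choices of depth, with all reads in the top line. Among the members, miR-128 alone stayed below 0 with every choice drawn, and miR-132, miR-212-3p and miR-212-5p crossed 0 with TMM and DESeq2 factors.

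Differences between members do not depend on the depth. The log2 ratio of miR-128 was lower than that of miR-132 by 0.30 (95% counting interval of the difference 0.18 to 0.43) and lower than that of miR-212-5p by 0.35 (0.26 to 0.44). Against miR-212-3p, with its few reads, the difference of 0.20 had an interval from -0.14 to 0.54. Between miR-132, miR-212-3p and miR-212-5p, the members from the miR-212/132 locus, no difference in log2 ratio was detectable at this depth. The arms of Mir132, given below, did differ. The ratio of miR-132 to miR-212-3p was 7.29 in the young and 7.84 in the old library (odds ratio 1.08, 95% interval 0.831 to 1.39, two-sided Fisher's exact test, p = 0.566, adjusted over 2 ratios 0.566). For miR-212-5p to miR-212-3p the odds ratio was 1.11 (0.866 to 1.43, two-sided Fisher's exact test, p = 0.420, adjusted 0.566). At these read numbers the old ratio could lie anywhere from 0.831 to 1.43 times the young ratio, over the 2 intervals, without being told apart from it.

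**Figure D3:**
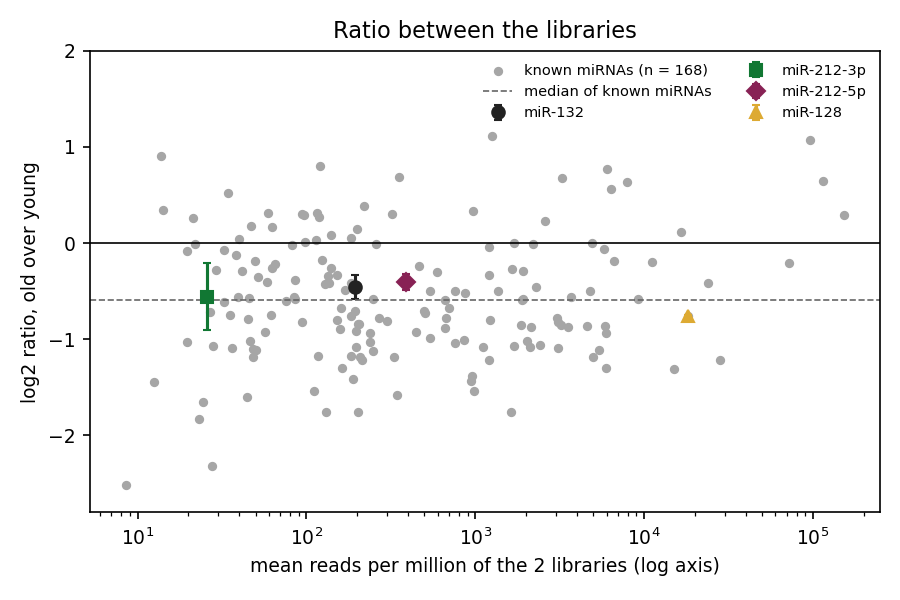
Log2 ratio, old over young, against the mean RPM of both libraries (log axis) for 168 known miRNAs (grey) and the 4 members, whose bars are exact 95% counting intervals. The 168 include miR-132, miR-212-5p and miR-128. With all reads as depth the members lie near the dashed median of -0.59, and miR-132, miR-212-3p and miR-212-5p lie above 0 when TMM or DESeq2 factors are used.

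The known miRNAs nearest in log2 ratio, among those whose reads were within 4-fold of a member's, were taken as the most alike over these 2 libraries. For miR-132 these were miR-543 (-0.42), miR-30b (-0.42) and miR-342-3p (-0.49), out of 78 candidates. For miR-212-5p they were miR-344 (-0.41), miR-30b and miR-543, out of 76, so 2 of the 3 neighbours were the same. miR-212-3p stood next to miR-434-5p (-0.56), miR-300 (-0.56) and miR-210 (-0.57), out of 49, and the counting interval of each of these neighbours contained the member's own value. For miR-128, with 18 candidates of like abundance, the nearest were miR-138 (-0.86, interval -0.89 to -0.84), miR-219-3p (-0.59, -0.60 to -0.57) and miR-101a (-0.94, -0.96 to -0.92), and none of these intervals reached the value of miR-128.

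Other miRNAs tied to neuronal activity were read from a list of 16 names, which gave 17 sequences. The list is not specific to neurons, as miR-219-3p and miR-219-5p in it also serve as oligodendrocyte markers below. Of the 17 sequences, 16 had at least 10 reads in a library. With all reads as depth, on which these directions rest, 11 had a p under 0.05 in the random sampling model with a lower old level. With a higher old level 2 passed, and 3 did not pass, beside 73.8% lower and 13.7% higher over the 168 known miRNAs. Their median log2 ratio was -0.72, beside -0.59 over all 168 known miRNAs, and 11 of the 16 were at least 1.5-fold lower, beside 50.6% of the 168. At the lower end, miR-204 had a log2 ratio of -1.60 from 304 reads in the young and 148 in the old library. For miR-134, a regulator of dendritic spine size, it was -1.41 from 1247 and 689 reads. At the upper end, miR-183 had a log2 ratio of 0.70 from 18 young and 43 old reads, which did not pass, and miR-26a one of 0.68 from 11433 and 26926 reads. Compared with these, the ratios of miR-132 and both miR-212 arms lay inside the range of the list.

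Markers of the cells that a brain sample can hold were checked beside the members. The 6 neuronal miRNAs (miR-124, miR-9, miR-137, miR-138, miR-153 and miR-218) were all detected and summed to 51803.5 RPM young and 24521 RPM old, 5 of 6 lower in the old library, with log2 ratios from -1.21 to 0.18. The oligodendrocyte list summed to 12266 and 7976 RPM (3 of 3 sequences lower), that of red blood cells to 606 and 322 RPM (3 of 3 lower), and miR-143 of the vessel list was at 5892 and 3234 RPM. The muscle miRNAs assigned, miR-1 and miR-206, summed to 7454 and 10867 RPM (1 of 2 lower), and miR-142-5p and miR-223 of white blood cells and microglia to 29.0 and 41.0 RPM. miR-142-3p, miR-126-3p, miR-145 and miR-133a were not assigned. Single miRNAs held most of the sums of neurons, oligodendrocytes and muscle. These were miR-124 (39418 RPM young and 17001 RPM old), miR-219-3p (11010 and 7336 RPM) and miR-1 (6223 and 9672 RPM). All these directions take all reads as depth. Among the lower sums, that of oligodendrocytes (log2 ratio -0.62) was smaller in size than the TMM shift of 0.66. Those of neurons (-1.08), red blood cells (-0.91) and miR-143 (-0.87) were larger. Of the neuronal miRNAs, miR-137 (-0.01) and miR-9 (-0.56) were smaller in size than that shift. miR-124 (-1.21), miR-138 (-0.86) and miR-218 (-0.82) were larger. The part of these cell types in the levels of the members was not tested.

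The 3′ ends of the reads give a measure that no scaling touches. An end was called templated where it continued the genomic sequence of the hairpin and untemplated where it did not. In miR-132 a uridine beyond the mature end was common and less so in the old library. The 2 main forms are shown with the added base in capitals.
miR-132 counted tag: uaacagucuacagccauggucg
miR-132 with 1 added base: uaacagucuacagccauggucgU
The counted tag made up 53.1% of young (538 reads) and 60.0% of old reads (654 reads), higher by 6.89 percentage points in the old library (Newcombe 95% interval 2.65 to 11.1). Forms with untemplated U made up 39.7% of young (402 reads) and 32.4% of old reads (353 reads), a difference of -7.30 points (-11.4 to -3.19). Untemplated A was at 2.76% and 2.84%. When the counted tag alone was used, the log2 ratio of miR-132 was -0.28 rather than -0.45, and it too flips under the shifts of 0.66 and 0.59 from TMM and DESeq2 factors.

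A T is also the first base of the sequencing adapter, whose second base is C. Over both libraries, 747 miR-132 reads ended in a T alone beyond the templated part, 13 went on with a second T and 2 with a C, and whether trimming left part of these bases was not tested. Across 158 known miRNAs with at least 100 reads in each library, reads equal to the counted tag plus a T had a median share of 2.98% young and 3.26% old, and the share was lower in the old library for 54 of them. In miR-132 that form took 38.9% of young and 32.02% of old reads, and 10 of the 158 had a higher share in the young library. In 0 of the 158 did the share drop by more points than in miR-132 (-6.88 points). With a median young share of 2.98%, most of the 158 could not have dropped that far, so this count says little. A T encoded in the hairpin, as in Mir128-1 for miR-128, was counted too.

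Untemplated U was less frequent in the other members. It was at 24.5% of young and 23.0% of old reads of miR-212-3p (34 and 32 reads, difference -1.44 points, -11.4 to 8.55) and at 8.99% and 9.76% of miR-212-5p (179 and 216 reads, difference 0.76 points, -1.01 to 2.52). The exact intervals of miR-132 and miR-212-3p did not overlap in the young library (36.7 to 42.8% and 17.6 to 32.5%) and overlapped in the old library (29.6 to 35.3% and 16.3 to 30.9%). The second form of miR-212-5p ended with the next genomic base, printed in capitals.
miR-212-5p with 1 templated base more: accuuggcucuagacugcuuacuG
It held 364 young and 438 old reads, 18.3% and 19.8% of the start. The counted tag held 61.1% and 59.2% (difference -1.89 points, -4.85 to 1.07), so no difference was detectable in either form.

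miR-128 had enough reads to resolve small shares. Its main forms were these, with bases beyond the counted tag in capitals.
miR-128 counted tag: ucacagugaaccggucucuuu
miR-128 with 1 U more: ucacagugaaccggucucuuuU
miR-128 with 1 A more: ucacagugaaccggucucuuuA
The counted tag held 55.2% of young (56950 reads) and 53.4% of old reads (48015 reads), a difference of -1.84 points (-2.28 to -1.39). The form with 1 U more held 26.1% and 27.5% (1.44 points, 1.04 to 1.83). Its last base is encoded in Mir128-1 and not in Mir128-2, so a templated U and a U added to either product cannot be told apart. Forms with untemplated A held 8.12% and 9.22% (8372 and 8298 reads, 1.11 points, 0.86 to 1.36). Ends templated by Mir128-1 alone took 28.2% of young and 29.6% of old reads, and those templated by Mir128-2 alone 0.935% and 0.9003% (965 and 810 reads, difference -0.04 points, -0.12 to 0.05).

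**Figure D4:**
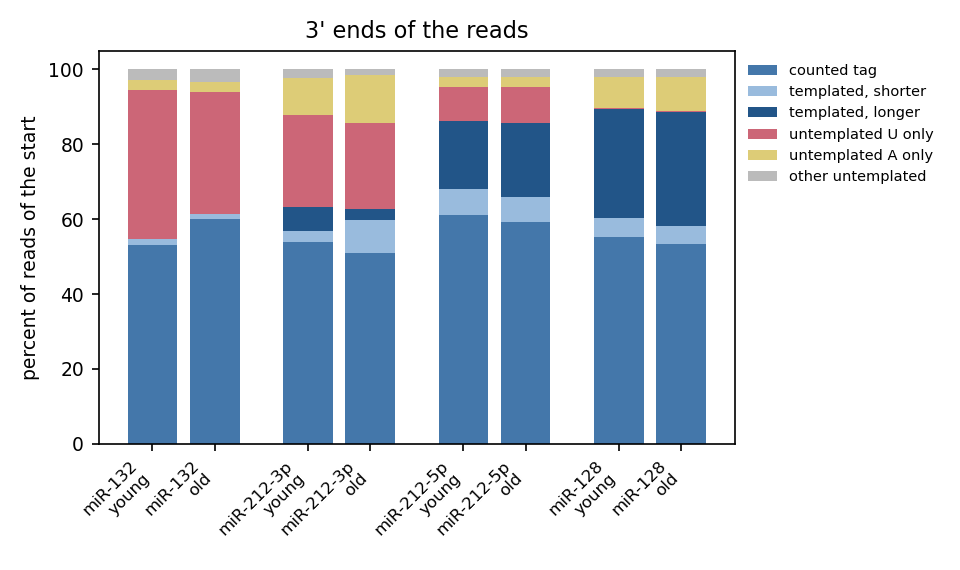
Percent of the reads of each start by the class of their 3′ end, in the young and the old library (1 library each), for the 4 members, where each bar adds up to all reads of that start. The red part, untemplated U, is widest in miR-132, at 39.7% young and 32.4% old, and the dark blue part, longer templated forms, is widest in miR-128.

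Starts that lie 1 or 2 bases downstream change the seed. They were counted over tags whose first 16 bases equal the precursor at that offset, from 3 bases upstream to 3 downstream. In miR-132 such shifted starts took 20.7% of young (266 reads) and 17.3% of old reads (231 reads), a difference of -3.36 points (-6.37 to -0.36). Their main forms follow with the seed of each in capitals, and neither seed was found in another mature sequence of the RefSeq table.
miR-132 from 1 base downstream: aACAGUCUacagccauggucg
miR-132 from 2 bases downstream: aCAGUCUAcagccauggucgu
The first had 106 young and 81 old reads and the second 75 and 65. The share of reads with an added U differed between the starts. Among reads that began 2 bases downstream, 87.8% of young (86 of 98, exact 95% interval 79.6 to 93.5%) and 80.6% of old reads (75 of 93, 71.1 to 88.1%) carried an added U, against 38.98% (398 of 1021) and 31.9% (352 of 1104) of those that began at the listed base. From 1 base downstream the share was 28.6% of young (48 of 168, 21.9 to 36.04%) and 30.4% of old reads (42 of 138, 22.9 to 38.8%), so the higher share was seen at the start 2 bases downstream and not at both shifted starts. Shifted starts were rarer in the other members, at 1.956% and 2.28% of miR-128 reads (difference 0.33 points, 0.20 to 0.45), 1.47% and 2.27% of miR-212-5p reads (0.80 points, -0.02 to 1.62), and 1 of 140 young and 5 of 145 old reads of miR-212-3p.

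The partner strand of miR-132 on the 5′ arm showed the largest difference between the libraries at this locus. With starts within 3 bases of the listed one, the 5′ arm of Mir132 had 845 young and 562 old reads, or 187 and 84.4 RPM, and the 3′ arm 1287 and 1335 reads, or 285 and 200 RPM. The 5′ arm thus took 39.6% of young and 29.6% of old reads of the hairpin, a difference of -10.0 points (Newcombe interval -12.9 to -7.07), and its odds against the 3′ arm were 0.641 times as high in the old library (0.561 to 0.733). Its log2 ratio was -1.15, and unlike that of miR-132 it stayed below 0 after the shifts of 0.59 and 0.66. Beside this, 26.8% of the 168 known miRNAs were at least 2-fold lower, a set without star strands. In Mir212 the shares of the 5′ arm were 93.6% and 94.0% (difference 0.48 points, -0.91 to 1.89). For Mir128-1 the odds were 0.521 times as high in the old library (0.295 to 0.890), from 46 young and 21 old 5′ reads. For Mir128-2 they were 1.47 times as high (0.689 to 3.19), from 14 and 18 reads. Both use the same 3′ reads, which these hairpins share. The arms of Mir132 were examined after their counts had been seen.

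**Figure D5:**
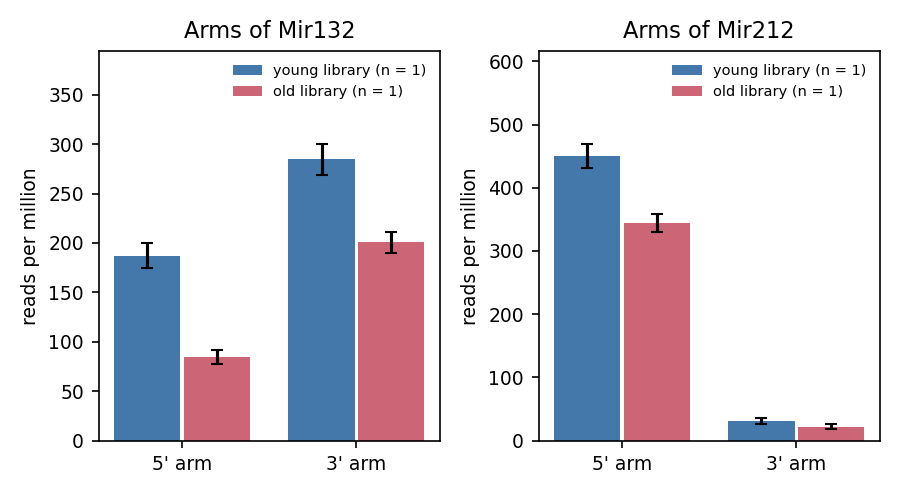
RPM from the 5′ and the 3′ arm of Mir132 and Mir212 in the young (blue) and the old (red) library, 1 library each, with exact 95% Poisson intervals. The 5′ arm of Mir132 stands at 187 RPM young and 84.4 RPM old, and the lower old bars of the 3′ arm of Mir132 and of both arms of Mir212 rest on all reads as depth, as their direction flips with TMM and DESeq2 factors.

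The tag taken for the listed partner strand, miR-132*, caught little of the arm. Several tags held the listed pair of reads, as they did for miR-128-1* and miR-128-2*, and the tag equal to the RefSeq mature sequence was taken, so that the study may have counted another. This tag had 5 young and 4 old reads, 0.592% and 0.712% of the reads of the 5′ arm. The most frequent form began 1 base downstream and ended 1 base beyond the RefSeq end, so its seed also differs.
miR-132* in RefSeq: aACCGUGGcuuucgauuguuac
miR-132* main form: aCCGUGGCuuucgauuguuacu
The main form had 460 young and 348 old reads, and starts 1 base downstream took 68.2% of young and 73.8% of old reads of the arm. From the RefSeq tag no difference between the libraries was detectable (ratio 0.543, exact counting interval 0.108 to 2.52), and from the sum over its start, with 266 young and 147 old reads, the ratio was 0.375 (0.305 to 0.461).

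The partner strands of miR-128 are the products that tell the 2 loci apart, and they were rare. miR-128-1*, from the R3hdm1 intron, had 44 young and 21 old reads (ratio 0.324, exact counting interval 0.183 to 0.557). miR-128-2*, from the Arpp21 intron, had 13 and 17 reads (ratio 0.888, 0.406 to 1.99), too few to show a difference. Over the 168 known miRNAs the log2 ratio changed by -0.40 per 10 percent of GC content, GC content was 66.7% for miR-128-1* and 60.9% for miR-128-2*, and the part of base composition in the ratios of these strands was not tested.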

How the data were processed

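Small RNAs of 18 to 30 nucleotides from mouse brain were sequenced as 36-nucleotide reads in 1 young and 1 old library, each of 2 mice. The authors trimmed the adapter with up to 3 mismatches, aligned to mm9 with SOAP (version not given in the sources used here) and deposited a raw read count per distinct sequence.

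Counts were summed over tags with the same first 18 nucleotides and divided by all genome-matched reads of the library. The design follows the study: the random sampling model was computed from DEGseq's formula, with exact (Clopper-Pearson) intervals beside it. A quasi-likelihood fit with edgeR needs residual degrees of freedom, which single libraries do not give. Ratios and intervals were tested on simulated data with the sampling of reads only, which held no variation between libraries or mice. Positions come from perfect matches to NCBIM37 and GENCODE annotation of that assembly, names and mature sequences from RefSeq (GRCm38.p6). Python 3.11.15, scipy 1.17.1, R 4.3.3, edgeR 4.0.16 and DESeq2 1.42.0 were used, the last for size factors only.

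Members, lists and tests were chosen with earlier results of these data known. Named miRNAs are the members, their listed partner strands, the 3 known miRNAs nearest in ratio, and the 2 highest and 2 lowest of the activity list. The alternatives were other depths, other tag sets, a GC correction, other tests and other read minimums. The arm alternatives, the arm and start counts and the added-T comparison were chosen after seeing the data.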

Additional observations from a re-analysis of the deposited data

How the results depend on the processing

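Depth decided the direction of 3 members. With TMM factors the log2 ratios of miR-132, miR-212-3p and miR-212-5p were 0.21, 0.10 and 0.26, and with DESeq2's size factors 0.13, 0.029 and 0.18. Under either set of factors miR-132 and miR-212-5p passed the random sampling model at 0.05 with a higher old level, and miR-212-3p did not pass. Without let-7 and miR-98 in the depth the log2 ratios of miR-132, miR-212-3p and miR-212-5p were -0.082, -0.19 and -0.034 and no longer passed. A GC correction took miR-212-3p to -0.25, no longer past the threshold, and turned the log2 odds ratios of miR-132 and of miR-212-5p to miR-212-3p to -0.078 and -0.12. A coefficient of variation of 0.2 between libraries, each a pool of 2 mice, was also assumed (edgeR's exact test). The unchanged log2 ratios of -0.45 (miR-132), -0.56 (miR-212-3p), -0.40 (miR-212-5p) and -0.76 (miR-128) then had p-values of 0.278, 0.219, 0.329 and 0.0671. At this assumed value, 64 of the 168 known miRNAs had a p under 0.05. The variation between mice is not known from these pools. Over perfectly matching tags the counted tag of miR-132 was higher in share by 0.68 points, no longer past 0, as that set leaves out untemplated ends. Known miRNAs at least 1.5-fold lower were 46 without let-7 and miR-98, 18 with TMM and 26 with DESeq2 factors instead of 85. The other 48 pairs of a result and a planned setting kept direction and call or, for counts of known miRNAs, stayed within 1.5-fold. Some of these could not change in part. Adding 1 read reused the main p-value, and the exact binomial test reused the main log2 ratio. A read minimum of 50 removed no miRNA, since each of the 168 had more reads in a library, so its count stayed 85. Direction was also kept for 3 of 3 added pairs for the arms of Mir132, chosen after seeing the data. Their log2 odds ratio of -0.64 ranged from -0.78 to -0.96, and with the GC correction its call was set, not computed. The causes were not tested.

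No paired analysis was possible because each age has 1 library and no replicate numbers. The few reads of miR-212-3p and of the miR-128 partner strands limit what is detectable there.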
